A study of Homo sapiens with 16 samples.

Results

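Steroid receptors and the proteins that carry their signal to genes were followed in OVCAR3, an established line of human ovarian carcinoma cells, during exposure to 1,25-dihydroxyvitamin D3 (1,25(OH)2D3), the form of vitamin D that acts as a hormone. The set was named gene by gene and holds the receptors ESR1, PGR and NR3C1, the corepressor NRIP1, the coactivators NCOA1, NCOA2 and NCOA3, and the corepressor NCOR1. A probe set, the group of short probes that reads 1 transcript, was taken as a member where the array annotation assigned it to exactly 1 of these 8 genes. This rule found 24 of the 19071 single-gene probe sets on the U133A array and 13 of the 10961 on the older U95 array, for 6 of the 8 genes. On U133A they were 9 probe sets for ESR1, 4 each for NR3C1, NCOA1 and NCOA2, 2 for NRIP1 and 1 for PGR. NCOA3 and NCOR1 had no probe set assigned in the annotation used here and were not analysed here.

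The groups were OVCAR3 cells with ethanol vehicle and OVCAR3 cells with 1,25(OH)2D3 for 8, 24 or 72 h, on 3 U133A arrays each from 3 independent experiments, and 4 earlier U95 arrays with 1 array for each of these times. Hormone was added at staggered times so that the dishes were harvested together, and the vehicle cells had as much ethanol for as long. The vehicle arrays carry the label 0 h, and the same 3 U133A vehicle arrays serve for 8, 24 and 72 h. The dose on the labels is 0.1 pM. All cells grew in medium with fetal bovine serum and bovine insulin, and the cells carry no engineered allele in the labels.

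Steroid receptors are transcription factors that a hormone switches on. Once bound to DNA they recruit coactivators, among them the p160 family (NCOA1, NCOA2 and NCOA3), which bring in enzymes that open chromatin. Corepressors oppose this: NCOR1 holds histone deacetylases on unliganded receptors, whereas NRIP1, also called RIP140, binds receptors that carry their hormone, competes with p160 proteins and is known in mice for its part in ovulation and in fat metabolism. The vitamin D receptor, VDR, belongs to the same receptor superfamily and uses the same coregulators, and in ovary and its tumours the oestrogen receptor ESR1 and the progesterone receptor PGR are the members most often followed.

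All 12 markers of ovarian carcinoma epithelium lay above the filter on low signals described below, with median signals of 539 for MSLN to 10807 for KRT18. Of the markers of other cells, 3 of 9 for fibroblasts, 1 of 7 for leukocytes and 0 of 6 for endothelium did. Median signals ran from 1.74 for LUM to 525 for COL1A1 in the fibroblast list, the latter close to MSLN. They ran from 5.50 for NKG7 to 259 for ITGAM in the leukocyte list. In the endothelial list they ran from 8.81 for EMCN to 173 for PECAM1. The summed signal of each of these marker lists overlapped between every treated group and vehicle. Within the epithelial list, however, limma called 1 marker higher and 0 lower at 8 h, and 2 higher and 2 lower at 24 h. At 72 h it called 3 higher and 1 lower. Over all tested genes it called 0.711%, 2.45% and 3.86% higher and 0.0557%, 1.62% and 2.98% lower at 8, 24 and 72 h. The marker counts were not tested against these shares. WT1, a transcription factor, averaged 4102, 4208 and 4353 at 8, 24 and 72 h against 2095 with vehicle, and CDH1, the adhesion protein E-cadherin, averaged 3628 and 3726 at 24 and 72 h against 2309.9 with vehicle. The keratin KRT7 averaged 6361 at 72 h against 4529 with vehicle. The keratin KRT18 averaged 9514 and 10366 at 24 and 72 h against 13463 with vehicle, and PAX8, a transcription factor, 6098 at 24 h against 7881 with vehicle. The 72 h call of KRT18 was lost without vehicle replicate 2 (limma adjusted p = 0.0909) or 3 (0.109) and without 72 h replicate 2 (0.0759) or 3 (0.0513). It was also lost without the filter (0.0591), with median centring (0.0704) and without a variance trend (0.0779). The 72 h call of KRT7 was lost with averaged probe sets (0.139), and the 24 h call of PAX8 with median centring (0.0806). The part of these changes in the values of NRIP1 and the other members was not tested. The median signal per array lay between 168 and 196, and array correlations lay between 0.958 and 0.976. The cells responded to the hormone: CYP24A1, the enzyme that degrades it, averaged 6185, 7330 and 7430 at 8, 24 and 72 h against 129 with vehicle. GADD45A, the growth arrest gene that the study followed by Northern blot, averaged 1332, 1800 and 1942 at these times against 468 with vehicle.

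NRIP1 was the member that moved, and the start of its gene is shown for that reason. The gene lies at chr21:14961235-15065936 on GRCh38.p14. RefSeq gives 3 promoter windows of 300 bases for it on the minus strand, and the most upstream of them is chr21:15065887-15066186. Capitals mark a GGTTCA, a variant of the half-site that VDR binds in pairs.

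NRIP1 promoter window: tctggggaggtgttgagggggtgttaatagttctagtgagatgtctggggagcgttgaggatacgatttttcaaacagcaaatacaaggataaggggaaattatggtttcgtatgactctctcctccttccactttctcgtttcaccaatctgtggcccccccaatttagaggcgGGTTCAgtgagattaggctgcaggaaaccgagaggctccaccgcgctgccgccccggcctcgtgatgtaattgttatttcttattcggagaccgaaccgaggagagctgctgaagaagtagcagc

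The half-site AGGTCA was searched on both strands together with 3 variants of it, which are AGTTCA as one, GGTTCA as another and GGGTCA as the last. The NRIP1 window shown held 1 of them, at position 176, and the other 2 NRIP1 windows held none, so no matches overlapped. Of all 35116 promoter windows of this length 38.6% held at least 1 of the 4, and 6 of the 25 windows of the member genes did. NCOA2 had 0 windows and so was not searched. Neither a pair of these half-sites in 1 orientation and 3 bases apart, found in 0.074% of all windows, nor the oestrogen receptor palindrome GGTCA, 3 bases, TGACC, found in 0.057%, was in any window of the members. The glucocorticoid half-site AGAACA was in 14.8% of all windows and in 2 of the members' windows, neither of them of NRIP1. These are matches of letters only.

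Values are MAS5 signals on a linear scale, scaled by the authors so that the trimmed mean is alike on every array. Signals of different probe sets are not on a common scale per molecule, so each probe set is compared only with itself. For tests, a gene was read by its probe set of highest mean, and differences are on the log2(signal + 15.833) scale, which understates changes of dim genes. A filter removed genes of low mean (the lowest 40% over the 12 arrays), and 7178 genes and 5 members (all but PGR) passed. Adjusted p-values are limma's, with Benjamini-Hochberg adjustment over the 7178 genes and a threshold of 0.05. The RNA came from whole cultures, so a change in every cell and a change in the share of cells that hold the transcript cannot be told apart. Each array is scaled to a common mean, so a change in total RNA per cell is not seen.

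NRIP1 rose at every time. The probe set 202599_s_at read 689, 843 and 788 with vehicle, 1256, 1271 and 1768 at 8 h, 1661, 1616 and 2491 at 24 h, and 1946, 1420 and 1982 at 72 h. Every treated array was above every vehicle array. The group means were 773 ± 78.3 with vehicle, 1432 ± 291 at 8 h, 1923 ± 492 at 24 h and 1783 ± 315 at 72 h (SD, n = 3 each). Ordered by level, vehicle was lowest, then 8 h, 72 h and 24 h.

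On the log2 scale NRIP1 was 0.86 higher at 8 h than with vehicle (standard error 0.178, 95% interval 0.484 to 1.24, limma adjusted p = 0.0297), a 1.82-fold difference. At 24 h it was 1.27 higher (interval 0.894 to 1.65, limma adjusted p = 0.00043), a 2.42-fold difference. At 72 h it was 1.18 higher (interval 0.799 to 1.56, limma adjusted p = 0.000522), a 2.26-fold difference. Among the 7178 genes ordered by rise it stood at place 35 at 8 h, 33 at 24 h and 59 at 72 h. It was 1 of 5 tested members called higher at each time, beside 0.711% of all tested genes at 8 h, 2.45% at 24 h and 3.86% at 72 h. Leaving out any 1 vehicle or 8 h array ended the 8 h call: the adjusted p was 0.168, 0.0602 and 0.0934 without vehicle replicate 1, 2 and 3, and 0.0543, 0.0534 and 0.184 without 8 h replicate 1, 2 and 3. It also missed the threshold without the filter (0.0872), with median centring (0.0577), with averaged probe sets (0.0668) and without a variance trend (0.0847). The calls at 24 and 72 h passed without each of the 12 arrays in turn.

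The treated times were also set against each other. The log2 change of NRIP1 was 0.41 at 24 h against 8 h (interval 0.0323 to 0.789, limma adjusted p = 0.559) and 0.32 at 72 h against 8 h (interval -0.063 to 0.694, limma adjusted p = 0.465). At 72 h against 24 h its log2 change was -0.095 (interval -0.474 to 0.283, limma adjusted p = 0.888). Neighbouring times in the order of levels therefore did not differ past the threshold, whereas each time did from vehicle. Over these 3 comparisons limma called 0 members, beside 0.641% of all tested genes for 24 against 8 h, 2.52% for 72 against 8 h and 0.153% for 72 against 24 h. At an unadjusted p under 0.05 there were 2 members for 24 against 8 h, 0 for 72 against 8 h and 1 for 72 against 24 h. The share of all genes at that unadjusted threshold is not given, so these counts are description only.

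The other NRIP1 probe set, 202600_s_at, read 627, 581 and 549.8 with vehicle, 973, 976 and 1004 at 8 h, 1274, 580.03 and 1382 at 24 h, and 1071, 1136 and 1558 at 72 h. Replicate 2 at 24 h lay within the vehicle range, and every other treated array was above it. On that same array 202599_s_at read 1616, above all vehicle arrays, so the pair of probe sets disagreed there. In a fit across all 11443 single-gene probe sets above the filter, 202600_s_at had a log2 change of 0.73 at 8 h (limma adjusted p = 0.379) and 0.77 at 24 h (limma adjusted p = 0.112), and it rose by 1.06 at 72 h (limma adjusted p = 0.014). Without replicate 2 at 24 h, the 24 h difference was 1.16 (limma adjusted p = 0.000288) and the 8 h difference of 0.73 had an adjusted p of 0.0116. The 72 h call of this probe set was lost without vehicle replicate 3 (limma adjusted p = 0.0573) and without 72 h replicate 3 (limma adjusted p = 0.0612).

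In that fit the calls among the 16 member probe sets above the filter were 1 at 8 h, 1 at 24 h and 2 at 72 h, all of NRIP1 and all higher, beside 0.507%, 1.84% and 3.1% of all probe sets called higher at these times. The 4 calls in all became 2 without vehicle replicate 3 and 6 without 24 h replicate 2.

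The earlier U95 arrays, with 1 array a time and so no test, read NRIP1 with 40088_at at 530.3 with vehicle, 866 at 8 h, 988 at 24 h and 1108.5 at 72 h. All 3 treated arrays were above the vehicle array, by 1.62-fold, 1.84-fold and 2.06-fold after 13.874 was added to each signal. They are a separate and earlier set of arrays, with another probe set for the gene.

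**Figure D1:**
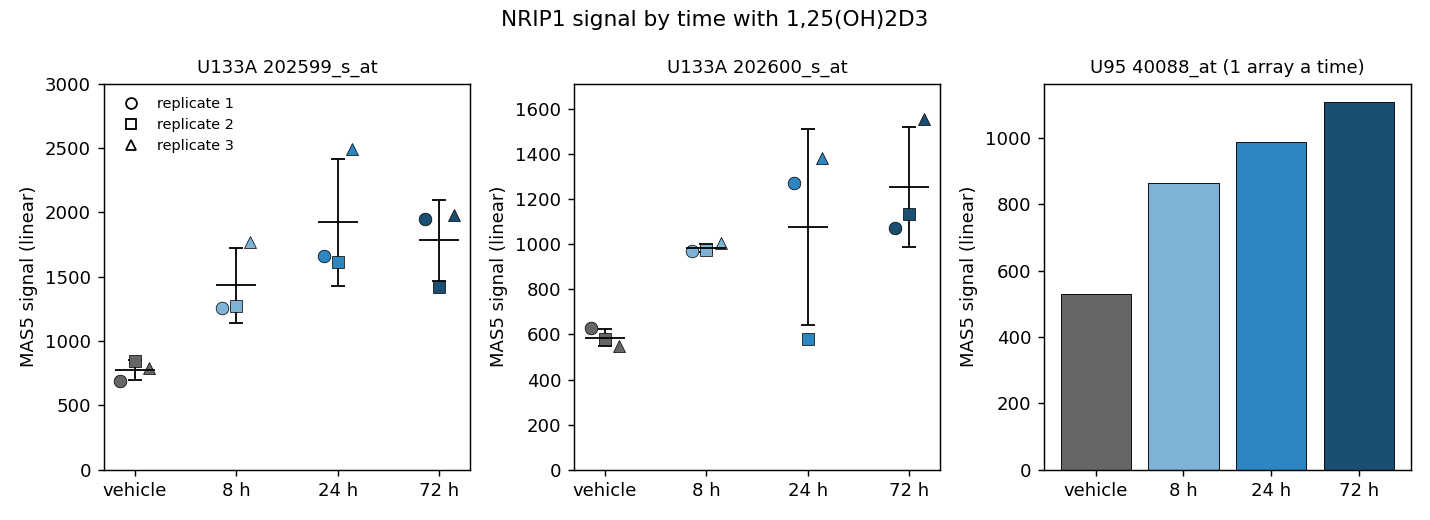
MAS5 signal of NRIP1 (linear axis from 0) with vehicle and at 8, 24 and 72 h, for both U133A probe sets (marker shapes are replicates 1 to 3, bars are mean ± SD of 3 arrays) and for the U95 probe set (1 array a time, shown as columns). Treated arrays of 202599_s_at (1256 to 2491) lie above the vehicle arrays (689 to 843), and the square at 24 h for 202600_s_at lies at 580.03, among its vehicle arrays.

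NRIP1 shared its course most closely with 5 genes. Over the 12 U133A arrays Pearson's r with NRIP1 on the log2 scale was 0.969 for RAB11FIP1, an effector of Rab11 in membrane recycling, and 0.938 for GATA6, a transcription factor of endoderm. It was 0.933 for KCTD12, an auxiliary subunit of GABA-B receptors, 0.933 for NIBAN1, a stress-response protein, and 0.931 for ABL1, a tyrosine kinase. These are the 5 highest of 7177 genes, the 12 arrays share 4 group levels, and the values describe likeness only.

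The p160 coactivators NCOA1 and NCOA2 did not pass the test at any time, and NCOA3 was not analysed. For NCOA1, also called SRC-1, the probe set 209107_x_at read 544, 628 and 576 with vehicle, 772, 549 and 610.4 at 8 h, 739, 925 and 628 at 24 h, and 672, 787 and 593 at 72 h. The 24 h arrays were all above the vehicle arrays, the lowest by under 1 signal unit (627.98 against 627.64), and the groups overlapped at 8 and 72 h. The log2 change of NCOA1 from vehicle was 0.13 at 8 h (interval -0.206 to 0.463), 0.37 at 24 h (interval 0.032 to 0.701, unadjusted p = 0.0338, limma adjusted p = 0.283) and 0.22 at 72 h (interval -0.116 to 0.554).

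At 24 h all 4 NCOA1 probe sets were above vehicle, by 0.05 to 0.37 on the log2 scale. At 72 h they differed in direction, and 210249_s_at read 338, 484 and 349.7, against 507, 474 and 564 with vehicle. Its log2 change was -0.40 (interval -0.773 to -0.0267, unadjusted p = 0.0373, limma adjusted p = 0.228), while that of 209107_x_at was 0.22 in the same cells. The U95 probe sets of NCOA1 also differed from each other at 72 h, with 0.631 of the vehicle value for 36118_at and 1.22-fold for 484_at.

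For NCOA2, also called GRIP1 or TIF2, 212867_at read 885, 862 and 818 with vehicle, 776, 795 and 908 at 8 h, 958, 921 and 1037 at 24 h, and 783, 753 and 662 at 72 h. All 24 h arrays were above and all 72 h arrays were below the vehicle arrays. The log2 change from vehicle was -0.05 at 8 h (interval -0.275 to 0.173), 0.18 at 24 h (interval -0.0429 to 0.405) and -0.22 at 72 h (interval -0.445 to 0.00334, unadjusted p = 0.0531, limma adjusted p = 0.255). Between 72 and 24 h the log2 change was -0.40 (interval -0.626 to -0.178, unadjusted p = 0.00163, limma adjusted p = 0.18), the lowest p of any member that was not called.

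NCOA2 probe sets disagreed at 72 h as well: 205732_s_at read 116, 129.5 and 142 at 72 h, below its 220.1, 183 and 149 with vehicle, and 215605_at read 252, 295 and 278 at 72 h against 187, 215 and 292 with vehicle. Over the 4 probe sets the log2 change at 72 h ran from -0.45 to 0.25, and none passed the test. On the U95 arrays 34312_at read 477 at 8 h, 534 at 24 h and 461 at 72 h, against 788 with vehicle, or 0.612, 0.684 and 0.593 of the vehicle value after the pseudocount.

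The glucocorticoid receptor NR3C1, which binds cortisol, had 4 U133A probe sets above the filter. The one with the highest mean, 201865_x_at, read 709, 707 and 911 with vehicle, 518, 723 and 824 at 8 h, 652, 805 and 734.5 at 24 h, and 648, 692 and 609 at 72 h. The 72 h arrays were all below the vehicle arrays, and the other times overlapped them. The log2 change was -0.18 at 8 h (interval -0.517 to 0.149), -0.08 at 24 h (interval -0.413 to 0.253) and -0.24 at 72 h (interval -0.575 to 0.0903), with limma adjusted p-values of 0.999, 0.89 and 0.428. The other 3 probe sets ran from -0.37 to 0.17 over the 3 times and did not pass. On U95, 36690_at was at 319.8 at 8 h, 362 at 24 h and 250.1 at 72 h, against 216 with vehicle, whereas 1102_s_at was at 153, 128 and 127, against 179 with vehicle.

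ESR1, the oestrogen receptor alpha, had 9 U133A probe sets, and 2 of them were above the filter. The brighter, 215551_at, read 187, 222 and 203 with vehicle, 198, 177 and 176 at 8 h, 176, 149 and 227 at 24 h, and 129, 263 and 229 at 72 h. Treated and vehicle arrays overlapped at every time, and the 72 h arrays spread widest. Its log2 change was -0.14 at 8 h (interval -0.637 to 0.357), -0.15 at 24 h (interval -0.649 to 0.344) and -0.03 at 72 h (interval -0.53 to 0.464). The other one above the filter, 205225_at, overlapped vehicle at every time and had a log2 change of 0.14 at 8 h (interval -0.424 to 0.709). It was -0.13 at 24 h (interval -0.697 to 0.436) and 0.09 at 72 h (interval -0.475 to 0.658). The pair thus differed in direction at 8 and 72 h, and neither passed the test. The remaining 7 probe sets ranged from 2.63 to 136 over the 12 arrays and lay below the filter. In limma's fit without a filter none of them passed at any time, with a lowest adjusted p of 0.646. The one value at an unadjusted p under 0.05 was that of 215552_s_at at 8 h (log2 change 1.06, unadjusted p = 0.042, limma adjusted p = 0.881). The 4 U95 probe sets of ESR1 stayed within 1.5-fold of vehicle at every time after the pseudocount of 13.874. With a pseudocount of 1, the dim 1298_at lay at a log2 ratio of -0.88, -1.25 and -0.64 at 8, 24 and 72 h, and 1893_s_at at 0.60 at 8 h.

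PGR, the progesterone receptor and a well-known target of ESR1, was read by 208305_at alone and lay below the filter. Its signal was 5.39, 4.82 and 4.89 with vehicle, 5.73, 4.66 and 6.23 at 8 h, 10.3, 9.28 and 17.2 at 24 h, and 3.01, 67.0 and 5.36 at 72 h. All but 2 of the 12 values were below the pseudocount of 15.833, and the 67.0 was 1 array of 3. In limma's fit without a filter its log2 change was 0.03 at 8 h (adjusted p = 0.999), 0.42 at 24 h (adjusted p = 0.839) and 0.62 at 72 h (adjusted p = 0.571). The U95 probe set 426_at read 229.7 with vehicle, 257 at 8 h, 263 at 24 h and 211 at 72 h.

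**Figure D2:**
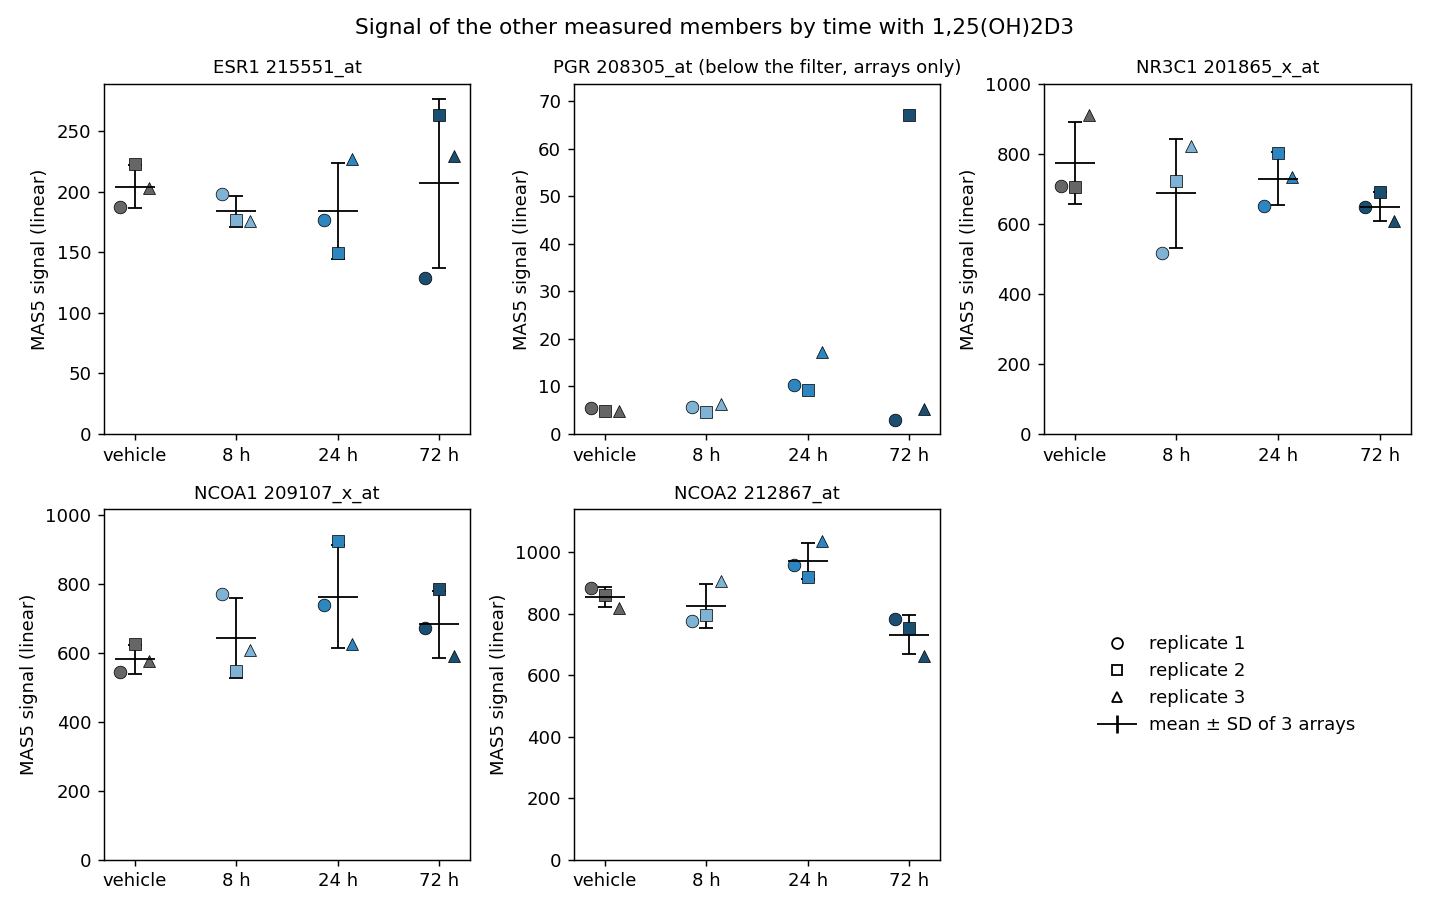
MAS5 signal (linear axes from 0, a scale of its own in each panel) of ESR1, PGR, NR3C1, NCOA1 and NCOA2 with vehicle and at 8, 24 and 72 h, with marker shapes for replicates 1 to 3 and bars for mean ± SD of 3 arrays (no bars for PGR). NCOA2 lies at 921 to 1037 at 24 h and at 662 to 783 at 72 h, on either side of its vehicle arrays (818 to 885), and PGR has 1 array at 67.0.

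No member gene was called lower at any time, beside 0.0557%, 1.62% and 2.98% of all tested genes at 8, 24 and 72 h. At an unadjusted limma p under 0.05, 0 of the 5 tested member genes were lower than vehicle. Each gene was read here by its probe set of highest mean. No share of all genes is given at this threshold, so the count is description only. That count leaves out 210249_s_at of NCOA1, which was lower at 72 h past the same threshold (log2 change -0.40, not called). Of the 16 member probe sets above the filter, the 3 treated and the 3 vehicle arrays did not overlap in 2 at 8 h, 3 at 24 h and 5 at 72 h. Over all 11443 probe sets this held for 13% at 8 h, 19.6% at 24 h and 23.1% at 72 h. The members' counts were not tested against these shares, and no excess is read from them. Those at 72 h were 202599_s_at and 202600_s_at of NRIP1, 205732_s_at and 212867_at of NCOA2, and 201865_x_at of NR3C1. On U95, 1 member probe set was past 1.5-fold higher and 1 lower at 8 h, beside 6.82% and 10.1% of all single-gene probe sets. At 24 h 2 were higher and 0 lower, beside 6.79% and 14.2%, and at 72 h 1 was higher and 2 lower, beside 7.52% and 16.1%. NRIP1 was among the higher ones at each time.

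**Figure D3:**
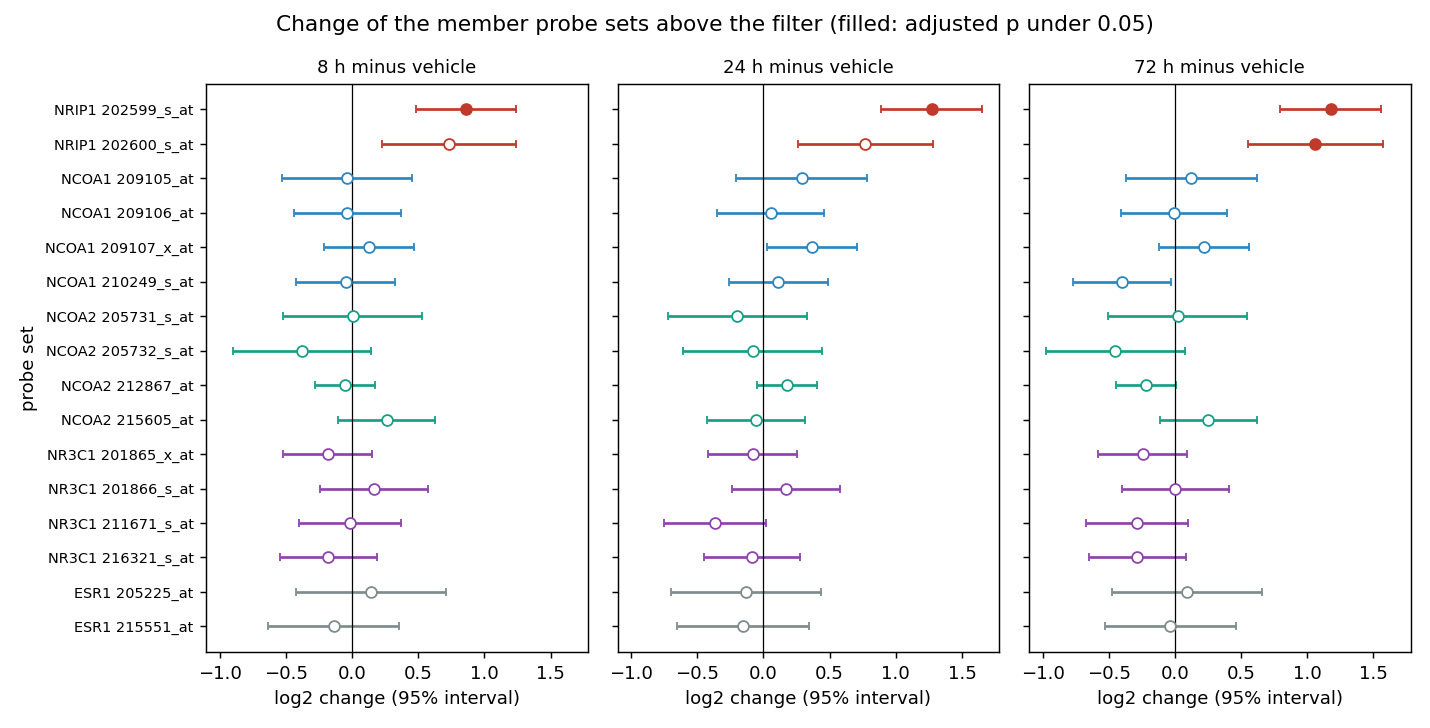
Log2 change from vehicle with its 95% interval for the 16 member probe sets above the filter at 8, 24 and 72 h, coloured by gene and filled where the limma adjusted p was under 0.05. The 4 filled points are NRIP1, at 0.86, 1.27, 1.18 and 1.06, and the points of the other genes lie between -0.45 and 0.37.

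Genes that work with or under these receptors were taken from 7 lists of 164 genes, of which 142 were on the U133A array. Of 14 tested other nuclear receptors and 18 tested other coactivators, limma called 0 at any time. At an unadjusted p under 0.05 the receptors counted 0 higher and 1 lower at 24 and at 72 h and none at 8 h. The lower one was RXRA at 24 h and RARG at 72 h (log2 change -0.99). The coactivators counted 2 higher and 1 lower at 8 h, 2 lower at 24 h and 3 lower at 72 h. For these and the other lists, the share of all genes at this unadjusted threshold is not given. After adjustment limma called 0.711%, 2.45% and 3.86% of all tested genes higher at 8, 24 and 72 h. It called 0.0557%, 1.62% and 2.98% of them lower. The list counts were not tested against these shares, and no excess is read from them. RXRA, the dimer partner of VDR, averaged 592 ± 66.3 at 24 h against 785 ± 58.0 with vehicle (SD, n = 3 each, log2 change -0.40, limma adjusted p = 0.139). CARM1, an arginine methyltransferase that p160 proteins recruit, averaged 190.4 ± 26.9 at 8 h against 296 ± 30.1 with vehicle (SD, n = 3 each, log2 change -0.60, limma adjusted p = 0.132). VDR itself averaged 479.6, 473 and 337 at 8, 24 and 72 h against 414 with vehicle and was not called. The median log2 change of the receptors was -0.08, -0.17 and -0.10 at 8, 24 and 72 h, and that of the coactivators was -0.04, -0.03 and -0.11, where the median over all genes was -0.004, -0.016 and -0.015.

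Of 16 tested other corepressors, 1 rose at 72 h: BCL6, a zinc finger repressor that recruits NCOR proteins, averaged 999.8 ± 154 against 562 ± 13.7 with vehicle (SD, n = 3 each, log2 change 0.80, limma adjusted p = 0.00577). Of 14 tested receptor chaperones, 1 rose at 72 h, STUB1, a ubiquitin ligase that works with heat shock proteins, which averaged 1968 ± 192 against 1451 ± 139.6 with vehicle (SD, n = 3 each, log2 change 0.44, limma adjusted p = 0.0178). The STUB1 call was lost without vehicle replicate 3 (limma adjusted p = 0.103) without 72 h replicate 1 (limma adjusted p = 0.0753) and with median centring (limma adjusted p = 0.0569). At 8 and 24 h these lists had 0 calls in either direction by limma. At an unadjusted p under 0.05, the corepressors counted 2 higher at 8 h, 2 higher at 24 h, and 2 higher and 3 lower at 72 h, the 3 lower being HDAC1, RCOR1 and TBL1XR1, none of which passed after adjustment. The chaperones counted 0 at 8 h, 1 higher at 24 h and 3 higher at 72 h. Their medians lay between -0.03 and 0.06 at all 3 times.

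Of 14 tested genes known as oestrogen-responsive in breast cancer cells, limma called 0 at 8 h, where 0 also passed an unadjusted p of 0.05, and 2 rose at 24 and at 72 h. CTSD, the lysosomal protease cathepsin D, averaged 776 ± 61.0 at 24 h and 1007.5 ± 189 at 72 h against 486 ± 79.5 with vehicle (SD, n = 3 each), a log2 change of 0.67 and 1.02 with limma adjusted p-values of 0.0111 and 0.000238. Without vehicle replicate 2 the 24 h call of CTSD was lost (limma adjusted p = 0.0664). IGFBP4, which binds insulin-like growth factors, averaged 924 ± 193 at 24 h and 897 ± 156 at 72 h against 472 ± 61.4 with vehicle (SD, n = 3 each), a log2 change of 0.93 and 0.90 with limma adjusted p-values of 0.00226 and 0.0021. The other 12 tested genes did not pass at any time, and the medians of the list were 0.002, -0.05 and -0.002 at 8, 24 and 72 h. At an unadjusted limma p under 0.05 the list counted 2 higher and 2 lower at 24 h, and 4 higher and 2 lower at 72 h. The lower ones were CCND1 (log2 change -0.59) and NHERF1 (-0.38) at 24 h, and MYC (-0.63) and XBP1 (-0.26) at 72 h.

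Of 12 tested genes known as glucocorticoid-responsive, 2 rose at 8 h, 3 at 24 h and 3 at 72 h, and 1 fell at 72 h. Of all tested genes, limma called 0.711%, 2.45% and 3.86% higher at these times and 2.98% lower at 72 h. The list was not tested against these shares. CEBPB, a bZIP transcription factor, averaged 14050.0 ± 708 at 8 h, 14784 ± 636 at 24 h and 13244 ± 2039 at 72 h against 7994.5 ± 399 with vehicle (SD, n = 3 each), with a log2 change of 0.81, 0.89 and 0.72 and limma adjusted p-values of 0.000186, 3.15e-05 and 0.000174. GADD45B, a stress sensor, had a log2 change of 0.83, 0.92 and 0.78 (limma adjusted p = 0.0333, 0.00488 and 0.011). Its 8 h call was lost without any 1 vehicle array (adjusted p = 0.0932, 0.17 and 0.0555 without replicate 1, 2 and 3), without 8 h replicate 1 (0.221) or 2 (0.125) and without 24 h replicate 1 (0.0522), as well as without the filter (0.101), with averaged probe sets (0.0888) and with only the groups compared (0.0565). Its 72 h call was lost without vehicle replicate 2 (0.057).

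SGK1, a kinase that controls sodium transport, averaged 319 ± 65.3 at 24 h and 309.7 ± 25.6 at 72 h against 166 ± 39.4 with vehicle (SD, n = 3 each), a log2 change of 0.89 and 0.86 with limma adjusted p-values of 0.017 and 0.0148. Its 24 h call was lost without vehicle replicate 1 (limma adjusted p = 0.0957) or 24 h replicate 1 (0.0526) or 2 (0.0838), and its 72 h call without vehicle replicate 1 (0.0795) or 72 h replicate 1 (0.0562). TSC22D3, the glucocorticoid-induced leucine zipper, moved the other way, with 298 ± 9.41 at 72 h against 454 ± 24.9 with vehicle (SD, n = 3 each, log2 change -0.58, limma adjusted p = 0.0112). That call was lost without vehicle replicate 3 (limma adjusted p = 0.0572) and when all its probe sets were averaged (0.528). The medians of the list were 0.11, 0.07 and 0.16 at 8, 24 and 72 h. At an unadjusted limma p under 0.05 it counted 4 higher and 1 lower at 8 h. The counts were 3 higher and 2 lower at 24 h, and 4 higher and 1 lower at 72 h.

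Of 6 tested steroid-converting enzymes, 1 rose at 72 h: CYP1B1, which hydroxylates oestrogens, averaged 543.5 ± 68.3 against 334 ± 26.9 with vehicle (SD, n = 3 each, log2 change 0.67, limma adjusted p = 0.0123). The call was lost without vehicle replicate 1 (limma adjusted p = 0.0609), without 72 h replicate 3 (0.0569) and when all its probe sets were averaged (0.106). At 8 and 24 h limma called 0 of the 6, with 0 and 1 at an unadjusted p under 0.05.

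**Figure D4:**
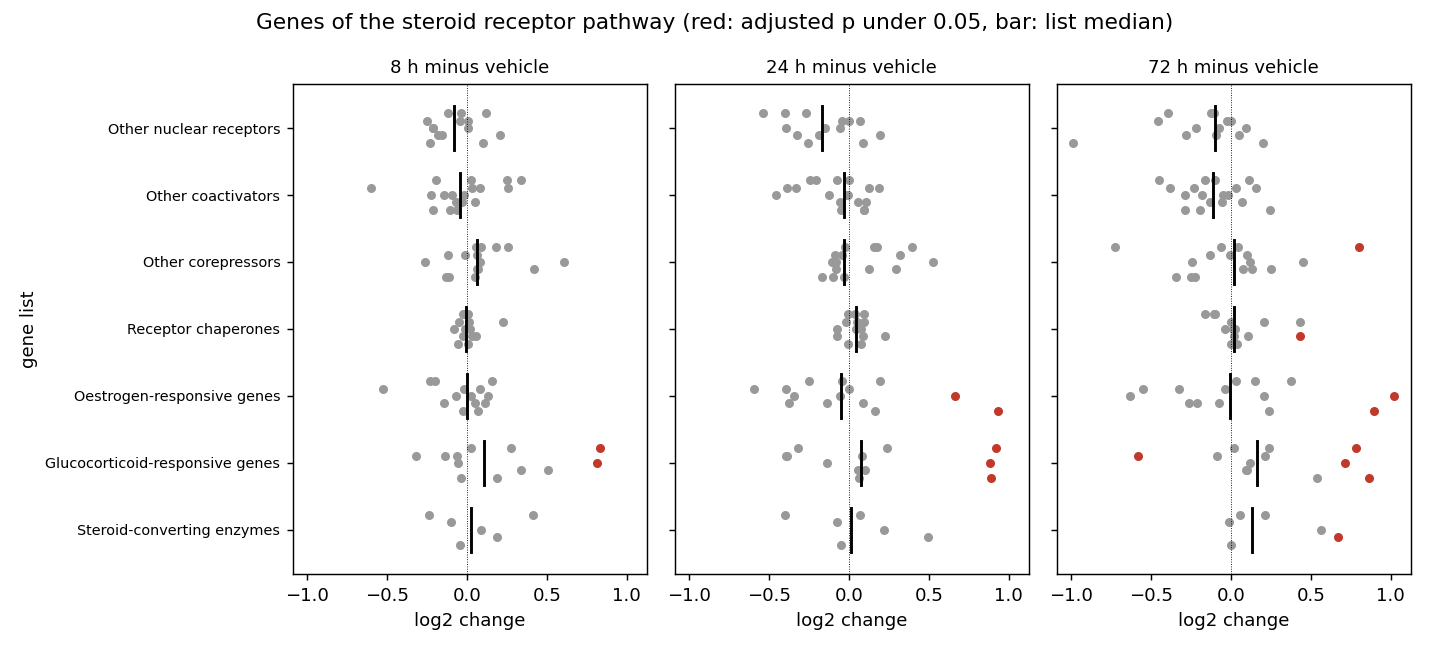
Log2 change from vehicle of each tested gene of 7 lists at 8, 24 and 72 h (points, red where the limma adjusted p was under 0.05) with the list median as a bar. The red points are 2 at 8 h, 5 at 24 h and 9 at 72 h, and 1 of them, TSC22D3 at 72 h, is to the left of 0.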

How the data were processed

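The authors deposited 1 intensity per probe set for each of 16 arrays, a MAS5 signal as the tool is named, with no version, in the submitters' processing notes. The 2% trimmed mean was 500.2 on every U133A array, so the values were used as deposited. Probe sets were named with the platform annotation, updated through RefSeq (GRCh38.p14); 0 columns were left unmatched.

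The log2 transform added the 10th percentile of all values. limma 3.58.1 in R 4.3.3 fitted all 12 U133A arrays with 1 term per group and eBayes with trend (8 residual degrees of freedom). Tables were read by data.table, version 1.17.8. The method was tested on simulated data with independent arrays and changes placed at 24 h only. That simulation does not bear on the 8 h calls or on arrays that deviate together. The number of arrays limits the precision. U95 values were described at 1.5-fold, with no test.

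Members, lists, tests and alternatives were chosen with earlier results of these data known. Named genes were all members, every list gene called up to 4 a list, otherwise the one with the lowest p, and the 5 genes most like a called member.

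Same-number arrays deviated together in all 18 pairs (r 0.0519 to 0.263). All 3 pairs exceeded 0.1 for 24 against 8 h and for 72 against 24 h, and 2 did for 72 against 8 h. Against vehicle, 1 pair exceeded 0.1 at 8 h, 1 at 24 h and 2 at 72 h. The fit has no replicate block. Promoter windows are RefSeq's. Figures used matplotlib.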

Additional observations from a re-analysis of the deposited data

How the results depend on the processing

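With 22 alternatives the member calls at 24 h and 72 h stayed at 1 and those between times at 0. NRIP1 was called at 8 h in 12 of the 22 (adjusted p 0.00505 to 0.184). The count at 8 h was 0 with no filter (adjusted p 0.0872), median centring (0.0577), averaged probe sets (0.0668) or eBayes without trend (0.0847), and 0 to 1 when arrays were left out in turn. Why the call was lost under these settings was not tested. At 24 and 72 h the highest adjusted p of NRIP1 was 0.00414 and 0.00479. The 4 member probe set calls ranged from 2 to 6 with arrays left out. With a replicate block NRIP1 had adjusted p-values of 0.00505, 6.6e-05 and 8.49e-05, no member call changed, and genes called lower over the array numbered 15 and 188 at 8 and 24 h, where the fit without it gave 4 and 116.

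Directions of members that were not called turned in 8 cases: ESR1 at 72 h (0.00956 with quantile normalization, -0.221 to 0.252 with arrays left out), NCOA1 at 72 h (-0.0152) and NCOA2 at 24 h (-0.0383) with the mean of probe sets, and with arrays left out NR3C1 at 8 h (-0.324 to 0.00307) and 24 h (-0.151 to 0.0385) and NCOA1 at 8 h (-0.00646 to 0.233). Genes called lower at 8 h were 7 with the larger pseudocount or the mean of probe sets, 8 without trend and 16 with only the groups compared, and at 24 h 72 with median centring. Without vehicle replicate 1, 2 or 3 they were 64, 74 and 67 at 24 h, where all arrays gave 116, and 117, 141 and 128 at 72 h, where all arrays gave 214. Of 16 calls of list genes 8 passed in all 22 alternatives and none turned direction. Of 9 calls of epithelial markers 6 passed in all 22 alternatives and none turned direction. U95 member values past 1.5-fold were 7, and 11 with a pseudocount of 1, the 4 more all being of ESR1. The cause was not tested.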
